A study of Rattus norvegicus with 12 samples.

Results

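In the renal cortex of rats, 112 of 13151 genes moved in one direction across the 3 groups of the study, lean, obese and obese with treatment, so that treated obese rats lay further from lean rats than untreated obese rats did. These genes were selected on their measured values. A gene was taken when its mean over the 12 rats was at least 5 and its 4 values in one group, its 4 in the next and its 4 in the third followed each other without overlap. Of 9851 genes with that mean, 46 (0.467%) rose from Zucker lean (ZL) to Zucker fatty (ZF) to treated Zucker fatty (ZF-SGLT2i) rats, and 66 (0.67%) fell in the same order. All 112 were protein coding genes. Because the choice used every value of every group, the differences between groups given for these genes are descriptions and carry no test.

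The study asked how obesity and an inhibitor of the sodium-glucose cotransporter SGLT2 alter the kidney in obesity-related nephropathy. Total RNA from the kidney cortex of 4 rats per group was sequenced. All rats were male and 32 weeks old. ZF rats are obese; the study's methods give the cause as a deficient leptin receptor, while its design text writes leptin. ZL rats served as the lean control. ZF-SGLT2i rats received canagliflozin in their food at 10 mg/kg/day from an age of 24 weeks on, for 8 weeks, with food per body weight matched to untreated fatty rats. Rats 1 to 4 of ZL, 2 to 5 of ZF and 2, 3, 4 and 6 of ZF-SGLT2i were measured. In the methods, the treated and untreated fatty rats of the drug study were divided at random from one purchase, and the study names the sequenced untreated rats as that untreated arm. Lean rats appear there in a separate time course, whose animals had part of a kidney removed at earlier ages for biopsy. Whether the sequenced lean rats came from it is not stated, and if so, obesity and this handling cannot be told apart. The libraries held 8824980 to 12210257 reads on genes. Values are the authors' normalized read counts, which were scaled between libraries and can be compared between rats for one gene but not between genes, since they are not divided by gene length. A log2 step is a difference between group means of log2(value + 1), with its standard error (SE) from a limma fit over all 12 rats.

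Whole renal cortex consists mostly of proximal tubules, which reclaim glucose, urate and amino acids and make glucose from lactate and glutamine. These cells burn fatty acids, and in fasting the nuclear receptor PPARα switches on genes for fatty acid use in liver and kidney. Chaperones such as Hsp90 fold client proteins in the cytosol, and a separate set works in the endoplasmic reticulum. Kidneys of male rodents also express genes that depend on androgens. In a bulk sample, fewer cells of a type and less RNA per cell cannot be told apart.

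The genes that rose included some of fatty acid use and fasting metabolism, grouped here by known role and not by a test. Among them were Creb3l3, a membrane-bound transcription factor of fasting lipid metabolism with a 22.5-fold ratio of ZF-SGLT2i to ZL means, Ppara itself, Cpt1a, the entry gate for long-chain fatty acids into mitochondria, Pck1, the cytosolic enzyme that commits carbon to gluconeogenesis, and Lpin2, a phosphatidate phosphatase. Ppara and Cpt1a were the 2 rising genes among the 41 tested on a fixed list of fatty acid oxidation genes. Of the other 39, limma (adjusted p under 0.05) called 13 lower (33.3%, against 10.6% of all genes tested) in ZF than in ZL. It called 2 higher there (5.13%, against 8.19%). After treatment it called 6 higher (15.4%, against 1.39%) and 0 lower. The genes that fell included Kap, an androgen-regulated protein of the proximal tubule, which was 19.9-fold lower in ZF-SGLT2i than in ZL. They also held chaperones of the cytosol and the endoplasmic reticulum (Hsp90aa1, Hsph1, Calr, Hsp90b1), the urate carrier Slc22a12 and the peroxisomal oxidase Hao2. Under 4 other scalings between libraries, Pck1 and Hsph1 kept the order in 3, Calr in 2, and Hsp90b1 and Hao2 in 1. The other members named in this paragraph kept it in all 4.

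The start sites of 5 members are shown. They were picked among members that hold the short motifs marked in capitals, so they do not stand for the other members of either direction. The windows run from 250 bases before to 50 bases after the RefSeq start in assembly GRCr8, 5′ to 3′ on the gene's own strand. For Creb3l3 and Pck1 the capitals mark AGGTCA, the hexamer that nuclear receptors bind singly or in pairs. For Hsp90b1 and Dnajb11 they mark the CCAAT box CCAAT on either strand, and for Hsph1 the CCAAT box and the heat shock element pair GAANNTTC.
Creb3l3, chr7:9273070-9273369, plus strand: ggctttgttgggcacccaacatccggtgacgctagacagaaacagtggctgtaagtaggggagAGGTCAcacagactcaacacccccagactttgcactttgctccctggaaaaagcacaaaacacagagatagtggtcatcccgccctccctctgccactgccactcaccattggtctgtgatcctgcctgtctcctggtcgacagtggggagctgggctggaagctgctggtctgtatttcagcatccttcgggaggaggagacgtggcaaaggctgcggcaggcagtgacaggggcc
Pck1, chr3:182348322-182348621, plus strand: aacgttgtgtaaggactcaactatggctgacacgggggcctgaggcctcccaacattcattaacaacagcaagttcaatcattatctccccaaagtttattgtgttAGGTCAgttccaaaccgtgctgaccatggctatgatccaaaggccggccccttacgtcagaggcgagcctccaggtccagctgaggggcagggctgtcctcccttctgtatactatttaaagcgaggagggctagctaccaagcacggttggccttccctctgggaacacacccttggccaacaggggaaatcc
Hsp90b1, chr7:23012244-23012543, minus strand: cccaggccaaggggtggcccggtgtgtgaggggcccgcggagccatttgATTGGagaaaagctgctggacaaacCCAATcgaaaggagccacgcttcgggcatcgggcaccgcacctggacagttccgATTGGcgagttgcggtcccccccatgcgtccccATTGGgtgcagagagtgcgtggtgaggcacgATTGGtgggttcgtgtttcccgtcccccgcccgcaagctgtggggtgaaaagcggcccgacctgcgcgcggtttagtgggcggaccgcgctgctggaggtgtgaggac
Dnajb11, chr11:91672751-91673050, minus strand: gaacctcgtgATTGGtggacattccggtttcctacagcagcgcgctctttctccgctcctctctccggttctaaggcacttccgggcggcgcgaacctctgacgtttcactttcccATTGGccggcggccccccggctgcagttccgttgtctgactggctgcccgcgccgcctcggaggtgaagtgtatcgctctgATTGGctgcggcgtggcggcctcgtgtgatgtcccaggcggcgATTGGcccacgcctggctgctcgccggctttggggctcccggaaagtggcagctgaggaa
Hsph1, chr12:10427118-10427417, plus strand: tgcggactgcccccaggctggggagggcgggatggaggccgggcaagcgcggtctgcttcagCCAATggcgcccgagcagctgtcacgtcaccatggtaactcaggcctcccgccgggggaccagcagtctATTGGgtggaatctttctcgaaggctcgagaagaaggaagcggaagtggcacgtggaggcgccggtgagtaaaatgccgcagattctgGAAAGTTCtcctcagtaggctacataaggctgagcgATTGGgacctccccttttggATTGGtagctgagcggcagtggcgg

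Hsp90b1 held 5 CCAAT boxes and Dnajb11 held 4, and Hsph1 held 4 besides its heat shock element pair. A window was on hand for 39 rising, 53 falling and 8105 of the 9851 genes. The CCAAT box occurred in 38.5% of rising, 52.8% of falling and 37.9% of all windows. The nuclear receptor hexamer occurred in 7.69% of rising, 9.43% of falling and 12.0% of all windows, and among the rising genes Creb3l3, Pck1 and Ptprf held it. The windows of Ppara, Cpt1a and Lpin2 did not hold it. The heat shock element pair occurred in 2.56%, 3.77% and 5.55%, and Hsph1 and Fkbp4 were its 2 falling holders. Both strands were searched. Median GC content was 64.0%, 64.0% and 61.3% in the 3 sets. The motifs are short, their matches are descriptions, and no difference between these shares was tested.

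Creb3l3 was at 0.90, 0.43, 0.45 and 0.18 in ZL rats 1 to 4, at 2.21, 3.31, 5.38 and 4.70 in ZF rats 2 to 5 and at 10.3, 13.3, 8.35 and 12.3 in ZF-SGLT2i rats 2, 3, 4 and 6. It was close to absent in lean cortex, with as few as 2 reads in ZL rat 4, so its ratio of ZF-SGLT2i to ZL means rests on few lean reads. The log2 steps were 1.69 (SE 0.22) and 1.33 (SE 0.22). The first depends on the pseudocount, being 2.82 with a pseudocount of 0.1, and the ZF mean was 7.95 times the ZL mean.

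Ppara, the receptor that senses fatty acids, was at 44.9, 48.5, 50.1 and 36.7 in ZL, at 54.6, 68.0, 63.6 and 84.7 in ZF and at 90.3, 104, 108 and 118 in ZF-SGLT2i. ZF rat 5 stood close below the lowest treated rat, and the steps were of like size at 0.57 (SE 0.13) and 0.64 (SE 0.13). Its target Cpt1a was at 235, 244, 256 and 219, then 307, 348, 353 and 336, then 507, 496, 503 and 463. The groups of Cpt1a were wide apart for their spread, with log2 steps of 0.49 (SE 0.06) and 0.55 (SE 0.06). Pck1 was at 1756, 2043, 1789 and 972 in ZL, at 2169, 2327, 2883 and 3107 in ZF and at 3249.9, 4712, 4017 and 3774 in ZF-SGLT2i. ZL rat 4 was low for Pck1, and the highest ZF rat almost reached the lowest treated rat (steps 0.71 and 0.59, SE 0.21 each). Lpin2 was at 154, 159, 150.02 and 116, then 244, 274, 207 and 248, then 327, 325, 302 and 300.0. It took most of its change between ZL and ZF, with log2 steps of 0.75 and 0.37 (SE 0.10 each).

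**Figure D1:**
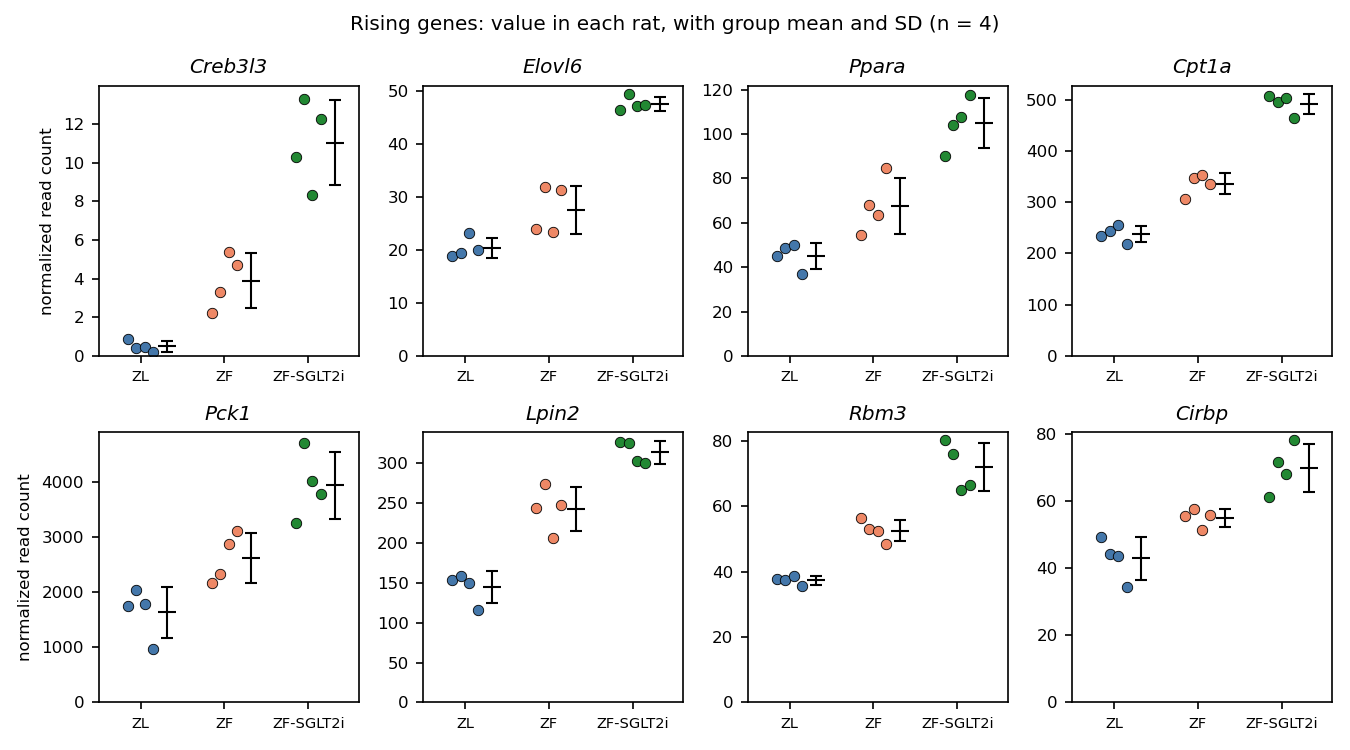
Normalized read count (vertical axes, linear, from 0) of 8 rising genes in each rat of the ZL, ZF and ZF-SGLT2i groups (horizontal axis); points are rats, and the bar beside them is the group mean with its SD (n = 4). Creb3l3 starts near 0 in ZL, while Cpt1a and Rbm3 step by less than 2-fold at each stage.

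Elovl6, which lengthens palmitate, was at 18.8, 19.5, 23.1 and 20.01 in ZL, at 24.0, 31.8, 23.4 and 31.3 in ZF and at 46.4, 49.4, 47.1 and 47.3 in ZF-SGLT2i. ZF rats 2 and 4 stood only just above the lean rats, and the treated rats lay close together and well apart. Its second step (0.78, SE 0.10) was larger than its first (0.41, SE 0.10). Paqr5, a membrane progestin receptor, had the same shape at a higher count, with means of 281 ± 5.54 (SD, n = 4), 316 ± 26.8 and 449 ± 4.26.

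Of the fixed list of fatty acid oxidation genes, 41 were tested, and Ppara and Cpt1a were its members in the rising set. Of the other 39, limma called 2 higher and 13 lower in ZF than in ZL, and 6 higher and 0 lower after treatment (Benjamini-Hochberg adjusted p under 0.05). These shares were 5.13% and 33.3% in the first comparison and 15.4% and 0% in the second. Over all 11633 genes tested, limma called 8.19% higher and 10.6% lower in ZF than in ZL, and 1.39% higher and 1.75% lower after treatment. At an unadjusted p under 0.05, 15 of the 39 were higher and 1 was lower after treatment. Over all 11633 genes tested, 991 were higher and 1005 lower at that threshold. The median log2 fold change of the 39 was −0.10 in the first comparison and 0.13 in the second, against −0.01 and 0.01 over all genes tested. Acadsb, a dehydrogenase of branched short-chain acyl-CoA, fell by 0.57 from ZL to ZF (limma adjusted p = 0.00049) and had a log2 fold change of 0.29 after treatment (limma adjusted p = 0.066). Vnn1, a PPARα target that makes pantothenate, was higher in ZF than in ZL (0.98, limma adjusted p = 0.0039), as was the enoyl-CoA isomerase Eci1 (0.32, limma adjusted p = 0.036). The carnitine acyltransferase Cpt2 (0.62, limma adjusted p = 0.0024) and the peroxisome division factor Pex11a (0.96, limma adjusted p = 0.0032) were higher in ZF-SGLT2i than in ZF. Acot12, an acetyl-CoA hydrolase, fell by 1.17 from ZL to ZF (limma adjusted p = 0.0028) and was 1.18 higher in treated than in untreated obese rats (limma adjusted p = 0.0086).

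Among 32 genes of gluconeogenesis, glycolysis and fructose use, Pck1 was the one rising member and Khk, the kinase that commits fructose to breakdown, the one falling member. Of the other 30, limma called 3 higher (10%, against 8.19% of all genes tested) and 0 lower (against 10.6%) in ZF than in ZL. After treatment it called 1 higher (3.33%, against 1.39%) and 2 lower (6.67%, against 1.75%). G6pc, which releases free glucose, had means of 1029, 734 and 879.7 in the 3 groups and was called in neither comparison (limma adjusted p = 0.23 and 0.59).

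Rbm3 and Cirbp, cold-inducible RNA-binding proteins, were both among the rising genes. Rbm3 was at 37.6, 37.5, 38.6 and 35.5 in ZL, at 56.3, 53.1, 52.4 and 48.3 in ZF and at 80.3, 75.9, 65.0 and 66.5 in ZF-SGLT2i. The lean rats lay within a narrow band and each step was alike in size (0.48 and 0.44, SE 0.07 each). Cirbp was at 49.4, 44.3, 43.7 and 34.3, then 55.6, 57.5, 51.3 and 55.9, then 61.3, 71.7, 68.2 and 78.2. Its groups lay closer together, with ZL rat 1 just under ZF rat 4 (log2 steps 0.36 and 0.33, SE 0.10 each). Cirbp and Midn, a nuclear protein that hands proteins to the proteasome, are neighbours 9138 bases apart in GRCr8 and both rose. Klf10, a zinc-finger repressor induced by TGF-β, was at 37.4, 22.3, 25.1 and 36.6, then 42.8, 43.8, 41.6 and 44.9, then 46.0, 62.9, 45.8 and 61.3. ZF-SGLT2i rats 2 and 4 were barely above the ZF rats for Klf10. The hour at which tissue was taken is not given in the sources used here. Of 17 circadian clock genes tested, limma called 10 higher and 4 lower in ZF than in ZL and 0 between ZF-SGLT2i and ZF (2 higher and 2 lower at an unadjusted p under 0.05). In the first comparison these were 58.8% and 23.5% of the list, against 8.19% and 10.6% of all genes tested, and the part of the hour in these values was not tested.

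Sdc1, the heparan sulfate proteoglycan syndecan-1, was at 9.42, 10.6, 10.2 and 10.5 in ZL, at 18.0, 24.3, 20.5 and 18.4 in ZF and at 33.4, 32.4, 30.6 and 34.6 in ZF-SGLT2i. It had wide spaces between groups at both steps (0.92 and 0.67, SE 0.09 each). Ccl28, an epithelial chemokine, had means of 7.82 ± 1.98 (SD, n = 4), 13.6 ± 2.76 and 20.7 ± 1.54. Pik3ap1, an adaptor that brings in phosphoinositide 3-kinase, had means of 31.1 ± 5.92, 45.0 ± 2.57 and 71.6 ± 11.2, and Pik3ip1, an inhibitor of the same kinase, went from 6.86 ± 0.575 to 14.1 ± 0.782 and 16.4 ± 1.33. Their shapes differed, since Pik3ip1 made 0.94 of its 1.15 log2 units in the first step. Camkk1, a calcium-dependent kinase kinase (7.68, 14.3 and 18.6), Slc6a9, a glycine transporter (5.85, 9.37 and 13.5), Hr, a nuclear corepressor (8.59, 13.5 and 19.7) and Cwh43, which remodels lipid anchors (19.4, 29.2 and 42.1), were also among the 15 largest changes. The highest read counts after Pck1, not adjusted for gene length, were those of the receptor phosphatase Ptprf (419, 483 and 541), Cpt1a, Paqr5 and the kinase anchor Akap13 (273, 304 and 384).

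Among rising genes named for their roles after their values had been seen, 2 further carriers sit in the mitochondrial inner membrane. Slc25a22, a glutamate carrier, had means of 17.9, 24.9 and 34.2, and Sfxn3, a serine carrier, had means of 38.9, 51.5 and 58.0. Gpc3, a glypican, rose from 52.2 to 73.8 and 93.8, and the gene listed as LOC100360552, which GRCr8 names as the Wnt receptor Fzd7, rose from 19.3 to 27.2 and 39.2. For LOC100360552, as for Ly6i, reads shared with similar genes could have been split in the authors' counting. Arnt2, a transcription factor partner, stood at 127, 168 and 235. The 24 rising genes outside the naming rule changed by 0.24 to 1.03 on the log2 scale over both steps, and besides those given in the text they were Ncdn, Nckap5l, RGD1308706, Dclre1b, a telomere nuclease, Txnrd3, a thioredoxin reductase, Klhl5, Mboat1, a phospholipid acyltransferase, Maged2, a regulator of distal salt transport, Jade2, Igsf5, a tight junction protein, Pde1a, a cyclic nucleotide phosphodiesterase, Carkd, which repairs hydrated NADH, Spint1, a protease inhibitor, and Calcoco1.

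Over the 46 rising genes the median log2 step was 0.42 from ZL to ZF and 0.34 from ZF to ZF-SGLT2i. The whole change was 0.24 in Cttnbp2nl, the smallest, with 16 genes over 1 and 12 under 0.5. The second step was the larger in 16 genes. Over all 9851 genes at or above that mean, the median size of a step was 0.13 and 0.09. Many groups were separated by little: the lowest treated rat exceeded the highest ZF rat by less than 5% in 21 of the 46 genes, and in Scube3 the ratio was 1.001. Required to lie at least 1.1 times apart at both steps, 10 rising genes remained, among them Cpt1a, Creb3l3, Hr, LOC100360552, Pik3ap1, Rbm3, Scin, Sdc1 and Slc6a9.

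**Figure D2:**
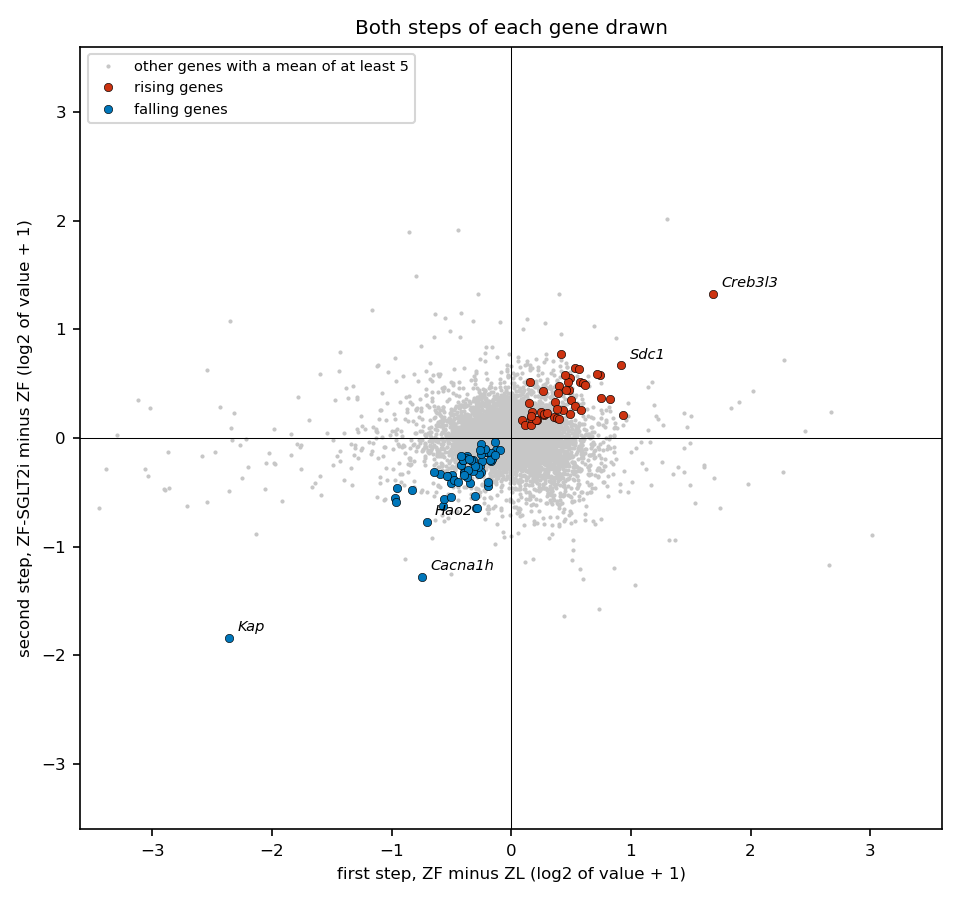
Log2 step from ZL to ZF (horizontal axis) against the log2 step from ZF to ZF-SGLT2i (vertical axis), both on log2(value + 1), for 45 rising genes (red), 64 falling genes (blue) and 9739 other genes with a mean of at least 5 (grey); 2 genes lie beyond the plotted range of 3.6 either way. The choice of genes puts the red points in the upper right and the blue points in the lower left; Creb3l3, Kap and Cacna1h lie far from most of the rest.

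Kap had the largest change of the falling genes. It was at 1958, 969, 1363 and 3060.2 in ZL, at 584, 246, 499 and 159 in ZF and at 68.7, 102, 116 and 83.0 in ZF-SGLT2i. Lean and ZF rats both varied several-fold among themselves and the treated rats less, with log2 steps of −2.35 and −1.84 (SE 0.39 each). Cacna1h, a low-voltage calcium channel, was at 20.7, 17.8, 18.5 and 15.5, then 11.9, 10.8, 10.3 and 8.64, then 2.38, 4.44, 4.73 and 3.57. It lost more in the second step (−1.28, SE 0.16) than in the first (−0.75, SE 0.16).

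Hao2, which oxidizes hydroxy acids in peroxisomes, was at 4098, 3118, 3824 and 4052 in ZL, at 2144, 2283, 2984 and 1905 in ZF and at 1383, 1206, 1887 and 1045 in ZF-SGLT2i. ZF rat 4 approached the lean rats and ZF-SGLT2i rat 4 approached the ZF rats (steps −0.71 and −0.77, SE 0.18 each). Slc22a12, the luminal urate exchanger URAT1, was at 461, 323, 304 and 597, then 265, 191, 213 and 174, then 157, 151, 142 and 154. The lean rats varied most and the treated rats least, and the first step (−0.96, SE 0.18) exceeded the second (−0.46, SE 0.18). Sult1c2, a sulfotransferase, was at 1343, 1356, 1483 and 977, then 559.9, 694, 862 and 544, then 491, 418, 470.3 and 371. Like its relatives, it may share reads with near copies. Grhpr, which reduces glyoxylate and, like Hao2, belongs to hydroxy acid metabolism, went from 451 ± 19.6 (SD, n = 4) to 349 ± 24.5 and 272 ± 7.33.

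Of 34 genes on the fixed list of proximal tubule carriers and enzymes, Hao2 and Slc22a12 were the falling members and none rose. Of the other 32, limma called 15 lower and 2 higher in ZF than in ZL, and 1 lower and 0 higher after treatment. That was 46.9% lower and 6.25% higher in ZF, against 10.6% and 8.19% of all genes tested, and 3.12% lower after treatment, against 1.75%. At an unadjusted p under 0.05, 4 were lower and 1 higher after treatment, against 1005 and 991 of all 11633 genes tested. The median log2 fold changes of the 32 were −0.43 and −0.12. Slc17a3, a urate and phosphate carrier, fell by 1.29 in ZF (limma adjusted p = 2.6e-05) with no further call, and the tryptophan pathway enzyme Acmsd fell by 0.72 (limma adjusted p = 0.0021). The glucose carrier Slc2a2 was 0.55 higher in ZF (limma adjusted p = 0.026) and was not called after treatment (−0.46, limma adjusted p = 0.14). The organic anion carrier Slc22a6 was 0.33 higher in ZF (limma adjusted p = 0.04) and fell by 0.59 with treatment (limma adjusted p = 0.0084). Other carriers among the falling genes were the amino acid and proton carrier Slc36a1 (29.3, 21.3 and 15.9), the monocarboxylate carrier Slc16a13 (81.5, 61.8 and 48.9), Slc22a25 (168, 120 and 91.6), which may share reads with related carriers, and the potassium-chloride carrier Slc12a7 (147, 131 and 114).

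Markers of cell types were summed beside these genes. All 8 proximal tubule markers were in the table, Lrp2 the most abundant. Their summed value was 26360, 25168, 26541 and 24339 in ZL, 20090, 20826, 24619 and 18861 in ZF and 19763, 18042, 19019 and 15572 in ZF-SGLT2i. ZF rat 4 was thus within the lean range for the sum, and the ZF and treated rats overlapped. Single markers did not all follow the sum, since limma called 1 of the 8 lower and 1 higher in ZF than in ZL (12.5% each, against 10.6% and 8.19% of all genes tested) and 1 lower after treatment (12.5%, against 1.75%). All 7 collecting duct markers, led by Aqp2, summed to 1686, 2202, 1818 and 1405, then 1823, 2153, 1561 and 2287, then 2494, 2649, 2604 and 2875. The treated rats were the highest, and limma called 1 of the 7 higher in ZF and 1 higher after treatment (14.3% each, against 8.19% and 1.39%). The 4 inner medulla markers summed to between 55.8 and 104 in ZL, 69.9 and 94.9 in ZF, and 105 and 149 in ZF-SGLT2i. Of the 3 tested, limma called 1 higher in ZF (33.3%, against 8.19%). All 10 injured tubule markers, led by Spp1, summed to 877, 787, 726 and 815 in ZL, 2433, 1149, 1919 and 1060 in ZF and 1621, 1627, 1357 and 933 in ZF-SGLT2i, and limma called 6 of the 10 (60%, against 8.19% of all genes tested) higher in ZF than in ZL. Every obese rat was above the lean rats, and treated and untreated rats overlapped. After treatment limma called 1 of the 10 injured tubule markers lower (10%, against 1.75%). The 7 fibroblast markers, led by Pdgfra, summed to 533, 517, 379 and 545, then 729, 521, 729 and 448, then 386, 335, 357 and 321. All treated rats were below all ZF rats, and limma called 3 of the 5 fibroblast markers tested (60%, against 1.75%) lower after treatment. The 8 podocyte markers, led by Podxl, summed to between 1309 and 1739 in ZL, 1632 and 2095 in ZF and 1639 and 2098 in ZF-SGLT2i, and limma called 5 of the 8 (62.5%, against 8.19%) higher in ZF than in ZL and 0 after treatment (1 lower at an unadjusted p under 0.05). Of mesangial and juxtaglomerular markers, 4 of 5 were measured, led by Pdgfrb, and their sums of 175 to 232 in ZL lay below those of 263 to 328 in ZF. The treated sums of 270 to 305 overlapped those of ZF. Of these 4, limma called 2 higher in ZF (50%, against 8.19%) and 1 lower after treatment (25%, against 1.75%). Of adipocyte markers, 4 of 5 were measured, led by Adipoq, and their low sums ran from 23.9 to 57.9 in lean, from 12.2 to 22.3 in untreated obese and from 15.8 to 19.4 in treated obese rats. The lean rats were the highest, and limma called 1 of the 2 adipocyte markers tested lower in ZF (50%, against 10.6%). The 5 measured of 6 blood markers, led by Slc4a1, summed to between 433 and 624 in ZL, 337 and 517 in ZF and 591 and 617 in ZF-SGLT2i. Slc4a1 is also on the collecting duct list, so the blood and collecting duct sums share it. Of the 4 blood markers tested, limma called 1 higher (25%, against 8.19%) and 0 lower in ZF, and 0 after treatment. Their median log2 fold change from ZL to ZF was 0.90, while the mean sum went from 516 to 431. The 6 proliferation markers, led by Mki67, summed to between 22.7 and 34.8, 30.39 and 39.5, and 16.8 and 30.37. For the blood and proliferation sums the ZF and treated rats did not overlap, by a narrow margin for proliferation. Of the 5 proliferation markers tested, limma called 1 higher in ZF (20%, against 8.19%) and 2 lower after treatment (40%, against 1.75%). In the 5 other sets, for thick limb and distal tubule, endothelium, macrophages, lymphocytes and smooth muscle, ZF rats overlapped both other groups. There, limma called 2 of 8 endothelium markers higher in ZF (25%, against 8.19%). It called 1 of 5 smooth muscle markers lower after treatment (20%, against 1.75%) and made no other call in these sets. None of the markers measured was at 0 in all rats. The part of these marker changes in the values of rising and falling genes was not tested.

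**Figure D3:**
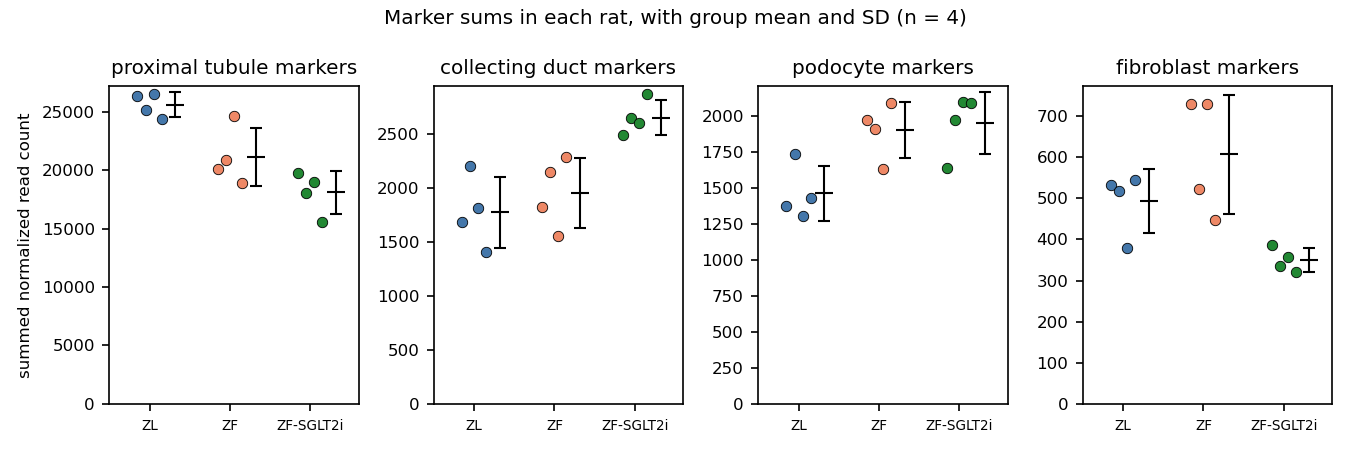
Summed normalized read count (vertical axes, linear, from 0) of the marker genes of 4 cell types in each rat of the 3 groups (horizontal axis); points are rats, and the bar beside them is the group mean with its SD (n = 4). The proximal tubule sum is highest in ZL and in ZF rat 4, and the collecting duct sum is highest in the 4 ZF-SGLT2i rats.

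Of the 37 tested genes on the fixed list of chaperones and endoplasmic reticulum stress, 5 were falling genes, among them the cytosolic Hsp90aa1 and Hsph1. Hsp90aa1, the stress-inducible cytosolic Hsp90, was at 415, 410.0, 429 and 460.3 in ZL, at 344, 294, 349 and 319.7 in ZF and at 269, 257, 282 and 242 in ZF-SGLT2i. The groups were narrow, and the steps were −0.39 and −0.31 (SE 0.07 each). Hsph1, which recharges Hsp70, was at 119, 142, 154 and 130.2, then 99.4, 96.9, 98.3 and 109.5, then 83.6, 86.9, 85.7 and 83.5. The treated rats were almost level for Hsph1 (steps −0.42 and −0.25, SE 0.07 each). Named after their values had been seen, Ahsa1, the activator of Hsp90 ATPase, went from 66.9 to 55.8 and 46.6, and Fkbp4, which couples Hsp90 to steroid receptors, went from 201 to 156 and 138. The J-domain proteins Dnaja4 (33.5, 26.0 and 19.4) and mitochondrial Dnaja3 (125, 107 and 97.8) and the atypical Hsp70 Hspa12a (142, 99.4 and 74.4) were also falling genes. Dnaja3 lies 62717 bases from Pam16, a falling subunit of the mitochondrial import motor (18.8, 13.7 and 12.1).

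**Figure D4:**
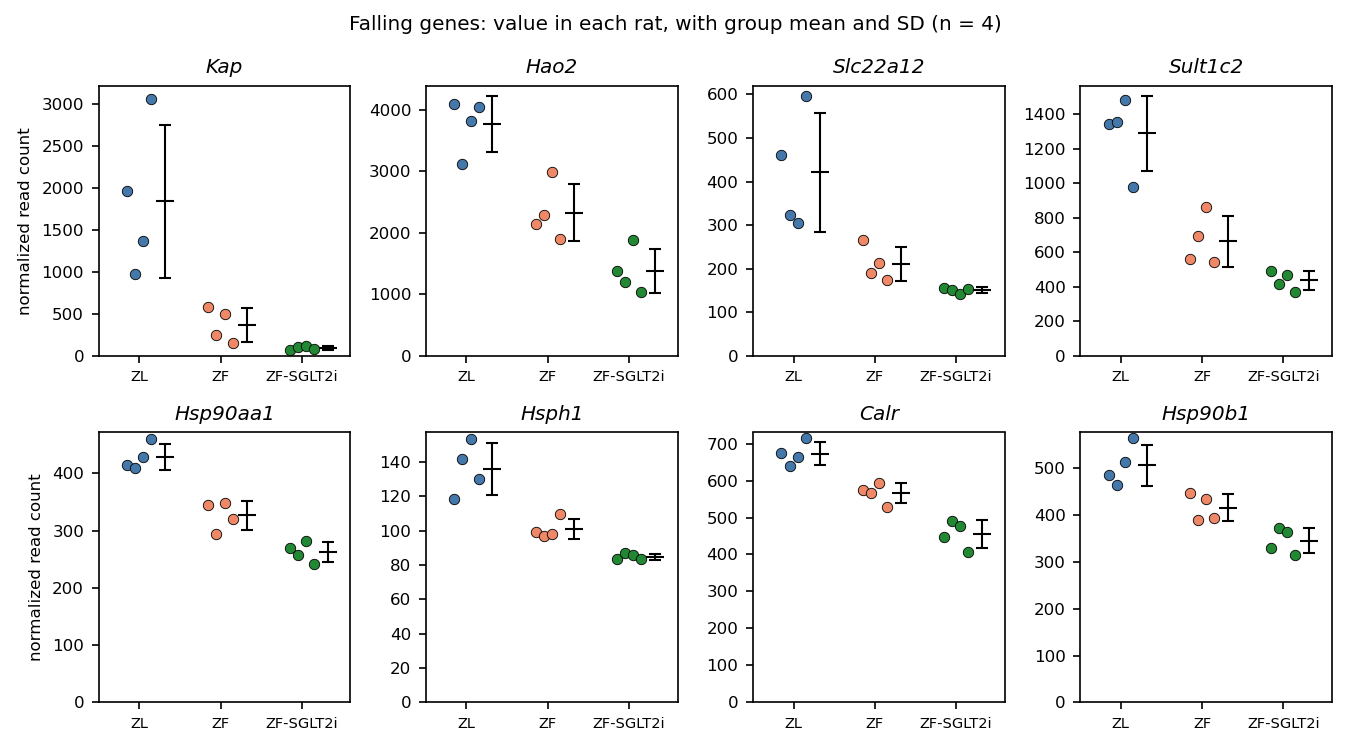
Normalized read count (vertical axes, linear, from 0) of 8 falling genes in each rat of the 3 groups (horizontal axis); points are rats, and the bar beside them is the group mean with its SD (n = 4). Kap varies several-fold between lean rats, and the 4 chaperones in the lower row fall by less than 2-fold in all.

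In the endoplasmic reticulum, the calcium-binding chaperone Calr was at 675, 638, 664 and 715 in ZL, at 575, 566, 592 and 529 in ZF and at 446, 490.0, 478 and 408 in ZF-SGLT2i. Its second step (−0.31, SE 0.07) was slightly the larger (first −0.25, SE 0.07). Hsp90b1, the Hsp90 of this compartment, was at 485, 463, 513 and 564, then 448, 389, 433 and 394, then 329.6, 373, 364 and 316. ZF rat 2 stood just under the lowest lean rat. Dnajb11, a co-chaperone of BiP, had means of 102 ± 3.20 (SD, n = 4), 91.4 ± 0.366 and 82.2 ± 5.39. BiP itself, Hspa5, fell by 0.54 with treatment (limma adjusted p = 0.0064) and was not called between ZF and ZL (−0.18, limma adjusted p = 0.2).

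The 5 falling genes of the chaperone list were thus Hsp90aa1, Hsph1, Calr, Hsp90b1 and Dnajb11, and it also held 2 rising genes, Rbm3 and Cirbp. Of the other 30, limma called 8 lower and 0 higher in ZF than in ZL and 1 lower and 0 higher after treatment. The shares called lower were 26.7% and 3.33%, against 10.6% and 1.75% of all genes tested. At an unadjusted p under 0.05, 0 were higher and 14 lower in ZF, and 1 was higher and 6 lower after treatment. Over all 11633 genes tested, 1768 were higher and 2080 lower in ZF, and 991 higher and 1005 lower after treatment. The J-domain protein Dnaja1 (−0.53, limma adjusted p = 0.001) and the mitochondrial chaperonin Hspe1 (−0.78, limma adjusted p = 0.0039) were lower in ZF, with log2 fold changes of 0.03 and −0.07 at the second step. The inducible Hsp70 genes went the other way in mean without a call: Hspa1b had means of 69.1, 86.9 and 118 (limma adjusted p = 0.18 and 0.16), and as a near copy of Hspa1a it may share reads. The median log2 fold change of the 30 genes was −0.17 and −0.07.

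**Figure D5:**
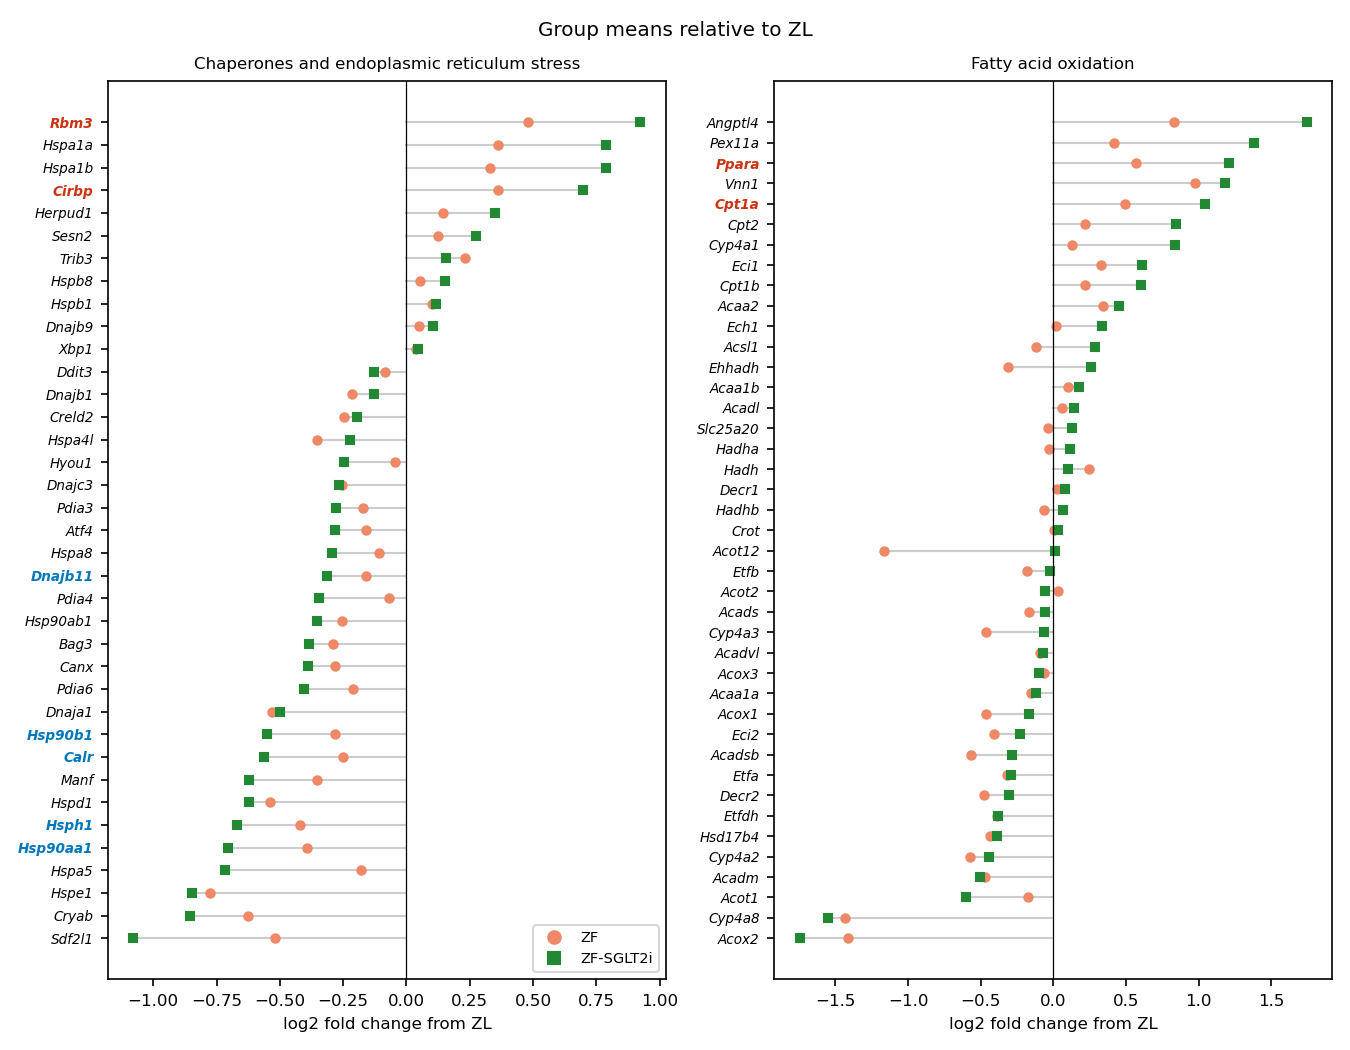
Log2 fold change from ZL (horizontal axis, log2 of value + 1) of the ZF mean (circles) and the ZF-SGLT2i mean (squares) for the 37 chaperone and endoplasmic reticulum stress genes and the 41 fatty acid oxidation genes tested, ordered by the ZF-SGLT2i value; names in red are rising genes and in blue falling genes. On the left panel Rbm3 is the first and Cirbp the fourth from the top, below Hspa1a and Hspa1b, and Ppara and Cpt1a stand near the top on the right, while many fatty acid oxidation genes lie left of 0.

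Msmo1, an enzyme of sterol synthesis, had means of 36.6 ± 6.09 (SD, n = 4), 27.2 ± 2.00 and 23.5 ± 1.04. Of the 31 tested genes of sterol and fatty acid synthesis, Sqle (−0.62, limma adjusted p = 0.0012) and Me1 (−0.90, limma adjusted p = 0.0017) were lower in ZF than in ZL and were not called at the second step, while Acly was higher in ZF (0.21, limma adjusted p = 0.025) and lower with treatment (−0.39, limma adjusted p = 0.0026). The list also holds the rising Elovl6. Of its 28 genes outside the rising and falling genes, limma called 12 lower and 1 higher in ZF. With treatment it called 1 lower and 0 higher. The shares in ZF were 42.9% lower and 3.57% higher, against 10.6% and 8.19% of all genes tested, and with treatment 3.57% lower, against 1.75%. At an unadjusted p under 0.05, 4 were higher and 3 lower with treatment, against 991 and 1005 of all 11633 genes tested.

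Khk was at 294, 251, 254 and 362 in ZL, at 242, 225, 243 and 209 in ZF and at 184, 192, 182 and 183 in ZF-SGLT2i. ZL rat 4 was high and the treated rats were level (steps −0.32 and −0.31, SE 0.10 each). Ftl1, the light chain of ferritin, was at 3001, 3049, 2760.3 and 2908, then 2289, 2458, 2582 and 2388, then 2069, 1789, 1923 and 1961. Ftl1 has processed copies, so its reads may be shared. Itga6, the integrin chain that binds laminin, went from 476 ± 21.7 (SD, n = 4) to 271 ± 50.9 and 192 ± 16.1, the first step being the larger (−0.83 and −0.48, SE 0.11 each). Myo5a (126, 85.0 and 57.0) and Myo7a (166, 133 and 91.7) are actin motors, and Espn (79.1, 51.3 and 40.8) bundles actin in microvilli. Galnt11, which adds sugars to megalin, had most of its change in the second step (371, 304 and 193), as did Sectm1a (8.28, 6.61 and 3.91). Mgat3, another sugar transferase, stood at 107, 68.0 and 54.7, the receptor kinase Ros1 at 98.4, 69.3 and 47.6, the secreted C1qtnf3 at 38.7, 19.4 and 12.6 and the spindle motor Kifc1 at 14.4, 9.24 and 5.66. The flippase Atp11a had one of the 5 highest counts (759, 526 and 414), and the tumour suppressor Rb1 hardly moved at the second step (109.6, 91.7 and 88.3).

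Over the 66 falling genes the median log2 step was −0.34 from ZL to ZF and −0.28 from ZF to ZF-SGLT2i. As shares of library reads without scaling factors the first was −0.23, and −0.22 when ribosomal RNA genes were also left out. The whole change ran from −0.17 (Trip12) to −4.19 (Kap), with 11 genes over 1 in size and 19 under 0.5. The second step was the larger in 21 genes. The lowest ZF rat exceeded the highest treated rat by less than 5% in 35 of the 66, and in Lrrk2 the ratio was 1.0002. Required to lie at least 1.1 times apart at both steps, 10 falling genes remained, namely Cacna1h, Grhpr, Hspa12a, Itga6, Kap, Myo5a, Ros1, Slc22a12, Slc36a1 and Sult1c2. The 39 falling genes outside the naming rule changed by −0.17 to −0.92 over both steps, and those given above, such as Grhpr, Myo7a and Fkbp4, were chosen after their values had been seen. Of the rest, Atp2a2, the calcium pump of the endoplasmic reticulum, had the highest count (591, 509.6 and 467). The others included Lamtor1, which anchors mTOR complex on lysosomes (113, 90.1 and 77.8), Osbpl1a, an oxysterol-binding protein (131, 99.1 and 86.0), Scly, which frees selenium from selenocysteine (189, 165 and 121), Ahcyl2 (436, 303 and 237), Nomo1, Snap23, Arhgef7, Mapt, Plcb1, Snx9, Xpnpep1, Chchd3, Phkb, Elavl1, Ascc3, Abcb6 and Zfyve16.

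The scaling between libraries bore on which genes fell. Shares of library reads outside the ribosomal RNA genes Rn45s and Rn28s, without the authors' scaling factors, moved the median log2 step from ZL to ZF of all 9851 genes by 0.12, and 89 genes then rose and 30 fell. Of the genes given here, 37 of 46 rising and 22 of 66 falling stayed in their order. Through all 4 other scalings tried, 31 rising and 20 falling genes kept it. Creb3l3, Ppara, Cpt1a, Lpin2, Elovl6, Sdc1, Rbm3 and Cirbp were among the former, and Kap, Cacna1h, Sult1c2, Slc22a12, Itga6, Myo5a and Hsp90aa1 among the latter. Pck1, Hsph1 and Dnajb11 kept the order in 3 of the 4, Klf10, Calr and Ftl1 in 2, and Hao2, Hsp90b1, Khk and Msmo1 in 1. Others that kept it in only 1 included the rising Akap13 and Midn. Among the falling genes these were Ahcyl2, Atp2a2, Dnaja4, Galnt11, Myo7a, Scly, Sectm1a and Slc16a13. Atp11a, Tmem41a, Trip12 and Zfyve16 kept it in 0 of the 4. Relative to the median of all genes, the first step of the falling genes was −0.32 with the deposited values and −0.28 under quantile normalization. The other 3 scalings multiply all genes of a rat alike, which by construction leaves this value nearly as it is. The group means kept their direction at both steps in all but Fam21c, Ftl1 and Trip12, whose first step turned under at least 1 scaling.

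The full order requires separation without overlap in both comparisons, so by the rule it can be no more common than either one alone. ZF lay above ZL without overlap in 8.5% of the 9851 genes and below it in 11.6%, and ZF-SGLT2i lay above ZF in 6.03% and below it in 5.82%. Of the rising genes 36 of 46 were called by limma (8.19% of all genes tested were called higher) in the first comparison and 17 in the second (1.39%), 14 of them in both. Of the falling genes 53 of 66 were called in the first (10.6% of all genes tested were called lower) and 19 in the second (1.75%), 17 of them in both. Since the genes were chosen on the same values, these counts say nothing further about them.

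Close to the minimum mean of 5, the rising genes just inside were Creb3l3 (mean over 12 rats 5.15), Clca4 (6.92) and Slc6a9 (9.58), and genes in the same order just outside were Vangl2 (2.22), Tcp11 (2.19) and Fam46b (0.866). The falling genes just inside were Sectm1a (6.27), Vstm5 (8.57) and Kifc1 (9.77), and just outside were Glyatl1 (2.45), Sult2a1 (1.62) and Gzmm (0.366). Individual rats leaned one way across both sets. Relative to its group's mean, ZF rat 5 had 35 of the 46 rising genes above and 17 of the 66 falling genes above, while ZF rat 4 had 14 and 49. Among treated rats, rat 6 had 29 and 22 and rat 2 had 11 and 42. Ribosomal RNA genes took 7.25% to 12.0% of the summed values of lean rats, 8.82% to 12.0% of those of ZF rats and 11.5% to 15.2% under treatment, and their part in these values was not tested.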

How the data were processed

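Total RNA from renal cortex of 12 rats was depleted of ribosomal RNA, made into strand-keeping libraries and sequenced as paired reads. Per the submitters' processing notes, the authors used Trimmomatic 0.38, Bowtie2 and RSEM 1.3.0 with genome build rn6, and edgeR. The authors deposited 1 table of normalized read counts, treated here as a signal per gene, with 13151 genes. Divided by its smallest positive value, each library gave whole numbers within 0.001, whose sum is the depth given. This could not be checked independently in every library, so no count model was fitted.

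Groups came from the labels. The members and all gene lists and motifs were chosen with earlier results of these data known. limma 3.58.1 in R 4.3.3 (trend, two-sided, 3 groups in one fit, Benjamini-Hochberg) was run on log2(value + 1) for the 11633 genes that reached 1 in 4 or more rats, called at an adjusted p under 0.05, and was tested on simulated data. The labels number the rats but say no more on replicates, so p-values measure the spread between these samples. Genes were named by rule: per direction the 15 largest changes, 5 highest means, 5 largest smaller steps, list members and the 3 genes nearest the minimum mean on either side, and in lists with at least 2 members of one direction the other genes with the smallest adjusted p, up to 2 per direction and comparison. Names, promoter windows and distances came from RefSeq GRCr8, in which all 112 names matched (12146 table names by symbol, 780 by synonym, 147 by LOC number, 78 not). A few members are counted but not reported here. Alternatives were other minimum means, scalings, a margin between groups, pseudocount, filters, 2-group fits, a rat number term and each rat left out.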

Additional observations from a re-analysis of the deposited data

Results flagged for a closer look

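Each of the 47 named genes was examined in each group of 4 rats for a rat far from the other 3, by Dixon's test at 95%. Of 141 groups, 3 held one. The test marks about 1 in 20 groups by chance, a rate that does not apply here because the genes were chosen for groups that do not overlap, which limits how far a rat can stand apart. Ptprf was 453 in ZF rat 4, against 489.9 to 498 in the other ZF rats. Itga6 was 444 in ZL rat 4, against 483 to 489.5. Rb1 was 84.6 in ZF-SGLT2i rat 3, against 89.2 to 89.8.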

How the results depend on the processing

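The 46 rising and 66 falling genes became 56 and 45 under quantile normalization, 50 and 61 under median ratios, 64 and 34 as shares of library reads without scaling factors, 89 and 30 as such shares without ribosomal RNA genes, and 10 and 10 with groups at least 1.1 times apart. Minimum means of 1 and 10 gave 48 and 68, and 43 and 63. Leaving out 1 rat, which loosens the rule, gave 51 to 97 rising genes, the most when ZF rat 4 was dropped, and 71 to 122 falling genes, the most when ZF rat 5 was dropped. limma called 2185 genes between ZF and ZL (953 higher, 1232 lower) and 366 between ZF-SGLT2i and ZF. Quantile normalization turned the first split to 1108 higher and 943 lower. Fits of 2 groups gave 1621 and 477 calls. Leaving out 1 rat gave 1389 to 2453 calls in the first comparison, lowest when ZL rat 1 and highest when ZF rat 4 was dropped, and 176 to 570 in the second. There, dropping ZF rat 5 gave 570, and dropping ZF-SGLT2i rats 3, 6 or 4 or ZF rats 3, 4 or 2 gave 176, 182, 210, 184, 187 and 207. With a replicate block for the rat number, 807 and 223 genes were called. Same-numbered rats did not deviate together (r from −0.43 to 0.33 over 9 pairs, 3 over 0.1, and 1 of 9 rats closest to its own number), so the numbers were not read as pairs. The cause of these differences was not tested, beyond fewer rats where 1 was left out. Of 1410 values of named genes under the alternatives, 1399 moved by less than the spread between rats and 10 by more, and 1, the first step of Ftl1 under quantile normalization, turned to 0.0499. For Creb3l3 a pseudocount of 0.1 gave a first step of 2.82. edgeR and DESeq2 fits were not run. Depth limits Creb3l3 in lean rats.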
